A study of Homo sapiens with 6 samples.

Results

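POU5F1, NANOG, PRDM14, ZFP42, DPPA4, L1TD1, LIN28A, LIN28B, KLF4 and FOXD3 are regulators that hold human pluripotent cells in their undifferentiated state or mark that state. These 10 genes were chosen by name, with earlier results of these data known, out of 40396 genes that the file lists. Their mRNA was measured in cells made from H1, a line of human embryonic stem cells, that had been differentiated towards definitive endoderm (DE) for 3 days. All cells received 50 ng/ml activin A on every day and the Wnt signaling activator CHIR99021 (2.5 µM) for the first 24 h. In 3 control samples DMSO was added as the vehicle, and in 3 SAR samples 0.5 µM saracatinib (SAR), an inhibitor of Src family kinases, was present throughout. At this dose the authors report no effective inhibition of Src phosphorylation, and less phosphorylation at some sites of focal adhesion kinase. No undifferentiated H1 cells and no other cell line were analysed here, so the values say how SAR and control cells differed on day 3 and not how far either had moved from the stem cell. The labels do not say whether the samples came from separate cultures, so the p-values measure the spread between these samples, which may be technical.

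In the pluripotent cell, POU5F1 (OCT4) and SOX2 bind DNA side by side and, together with NANOG, keep their own genes and those of other stem cell regulators active. Activin signaling through SMAD2 and SMAD3 is a known activator of NANOG, and the same signaling at higher strength drives cells into mesendoderm and then DE, during which the network is shut down at different speeds. LIN28A and LIN28B are RNA-binding proteins that block the maturation of let-7 microRNAs, which mature as cells differentiate.

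The promoter of NANOG is shown because NANOG is the regulator that differed most clearly between the groups and because the OCT4-SOX2 site known from the pluripotent network lies in it. The sequence below holds the 250 bases before the start site in RefSeq (GRCh38.p14, chr12:7789152-7789401, plus strand), with the octamer core TTTGCAT and the SOX core ACAATG in capitals.
NANOG promoter: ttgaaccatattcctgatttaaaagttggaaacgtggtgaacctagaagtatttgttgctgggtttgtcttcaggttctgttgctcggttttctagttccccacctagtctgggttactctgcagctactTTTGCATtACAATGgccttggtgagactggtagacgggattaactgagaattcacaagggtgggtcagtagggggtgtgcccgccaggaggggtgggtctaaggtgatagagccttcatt

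The octamer core (ATGCAAA, searched on both strands, like every motif here) starts at position -120 and the SOX core (CATTGT) at -112, with 1 base between them. The octamer core was found in 3.94% of 35116 RefSeq promoters of this length and the SOX core in 9.29%. Both cores in this order, orientation and spacing were found in 2 of these promoters, and NANOG was 1 of them. An entry was found for 7 of the 10 regulators, all but POU5F1, PRDM14 and LIN28A. Besides NANOG, the SOX core was present in LIN28B and a TEAD core (GGAATG, in 11.9% of promoters) in L1TD1, and a forkhead core (TGTTTAC, in 2.98% of promoters) was found in 0 of the 7. These matches are descriptions of letters and not measured binding sites.

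Expression was deposited as FPKM, fragments scaled by gene length and by the total of the library, which allows levels of different genes to be compared. The library totals that the FPKM were scaled by were recovered as 16681280 to 24419937 reads. Reads counted in the listed genes made up 99.7% to 99.75% of each total, so the totals need not equal the sequencing depth. The number of genes with any fragment was 33169 in control replicate 1 and 29506 to 30109 elsewhere. The labelled DE identity was checked against its defining markers: the 15 listed DE markers all passed the expression filter, and their summed level was 4172 to 5297 FPKM in control and 2251 to 2335 FPKM with SAR, most of it CER1. SOX17 and FOXA2, the transcription factors that define DE, were present in every library at 22.3 FPKM or more. The amnion and trophoblast genes summed to 1.20 to 2.68 FPKM in control and 2.62 to 4.45 FPKM with SAR. The mesoderm genes summed to 21.0 to 23.8 FPKM in control and 28.8 to 32.6 FPKM with SAR. The neural genes summed to 59.3 to 75.0 FPKM and 71.0 to 88.2 FPKM, most of it NES. PAX6 lay under the expression filter, at 0.0616 to 0.106 FPKM in control (24 to 50 reads). With SAR it had 0.0029 FPKM or less (1 read in each library). Because the RNA is from whole cultures, fewer cells of a type and less RNA per cell cannot be told apart.

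NANOG was lower with SAR in every library while POU5F1, its partner in the pluripotency network, did not pass the test. FOXD3 was called higher at a very low level, and the other 8 regulators were not called. A gene was called at an adjusted p under 0.05 from limma on log2(FPKM + 0.1), with Benjamini-Hochberg adjustment over the 16371 genes that averaged 0.5 FPKM or more, and an absolute log2 fold change (SAR minus control) above 1. All 10 regulators passed that filter, FOXD3 only through its SAR libraries, since its control mean was under 0.5 FPKM. Of the 10, 1 was called higher and 1 lower, beside 3.41% of all tested genes called higher and 1.58% called lower. At an adjusted p under 0.05 alone, LIN28A and FOXD3 were higher, NANOG was lower and 7 regulators did not pass, beside 23.7% of tested genes higher and 9.55% lower. The groups did not overlap for 4 regulators that were higher with SAR (ZFP42, DPPA4, LIN28A, FOXD3) and 2 that were lower (NANOG, LIN28B), beside 35.5% and 15.2% of tested genes. The median log2 fold change of the 10 was 0.21 beside 0.12 for all tested genes. Because the median gene itself was shifted by 0.12 in FPKM and by 0.00 after median-ratio rescaling of the libraries, the regulators are given below on both scales.

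**Figure D1:**
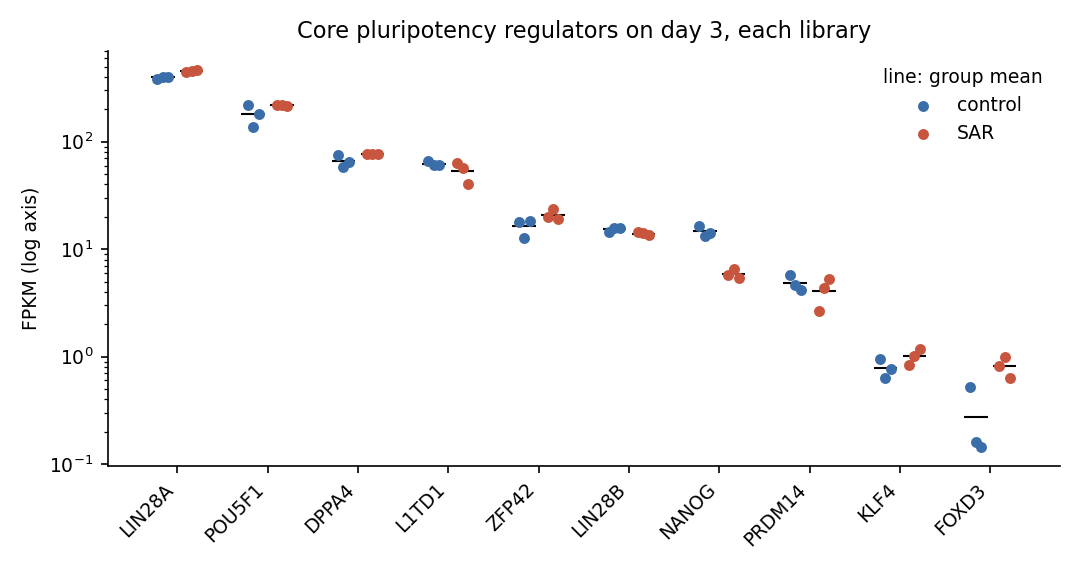
FPKM (log axis) of the 10 regulators in each of 3 control (blue) and 3 SAR (red) libraries, in order of the control mean, with group means as black lines. LIN28A lies highest, near 400 FPKM in control, and FOXD3 lowest, and NANOG is the regulator whose red points lie furthest below the blue ones.

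NANOG, a homeodomain transcription factor needed for self-renewal of pluripotent cells (ENSG00000111704, GRCh38 chr12:7787794-7799141, plus strand), had 16.6, 13.3 and 14.2 FPKM in control replicates 1 to 3 and 5.77, 6.54 and 5.36 FPKM in SAR replicates 1 to 3. The groups lay far apart, and the highest SAR library was below the lowest control library. The means were 14.7 ± 1.71 and 5.89 ± 0.604 FPKM (SD, n = 3), a level 2.49 times higher in control. The log2 fold change was -1.30 (SE 0.107, 95% interval -1.56 to -1.05, adjusted p = 0.000672 from limma), over 1442 to 1960 reads in control and 519 to 598 reads with SAR. NANOG was called lower under all 16 other settings tried, with log2 fold changes from -1.42 (after median-ratio rescaling) to -1.18. Its level exceeded that of 82.4% of tested genes in control and of 60.3% with SAR.

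POU5F1 (ENSG00000204531, GRCh38 chr6:31164337-31180731, minus strand), the POU factor at the centre of the network, had 220, 138 and 183 FPKM in control and 222, 222 and 214 FPKM with SAR. The SAR libraries were close together at the level of the highest control library, and the control libraries differed by 1.59 times between the highest and the lowest. The log2 fold change was 0.31 (SE 0.155, interval -0.06 to 0.67, adjusted p = 0.167 from limma) and 0.18 after median-ratio rescaling (adjusted p = 0.369). Without control replicate 1 it was 0.46 (adjusted p = 0.0373 from limma), the only 1 of 16 other settings that passed the adjusted p. Without control replicate 2 it was 0.13 (adjusted p = 0.348). The interval leaves room for anything from a slight decrease to an increase of 0.67 on the log2 scale, but not for a decrease of the size seen in NANOG. TCF19 on the opposite strand shares 8.56% of the exon bases of POU5F1, and whether the counting used strand is not given in the sources used here.

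The ratio between these partners was therefore compared within each library, which removes any scaling of the library. NANOG stood at 7.54% to 9.61% of the POU5F1 level in control and at 2.50% to 2.95% with SAR, without overlap (log2 difference -1.62, exact two-sided permutation p = 0.1, the smallest that 3 against 3 samples allow). SOX2, the other partner of POU5F1, differed in the other direction, with a level of 11.6% to 13.1% of POU5F1 in control and 16.7% to 19.5% with SAR, also without overlap. SOX2 itself had 28.9, 16.1 and 21.2 FPKM in control and 37.0, 43.2 and 39.1 FPKM with SAR. This difference of 0.88 on the log2 scale (limma adjusted p = 0.0153) passed the adjusted p but not the fold threshold. Against each of the other 9 regulators the NANOG level was lower with SAR in every library than in any control library.

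**Figure D2:**
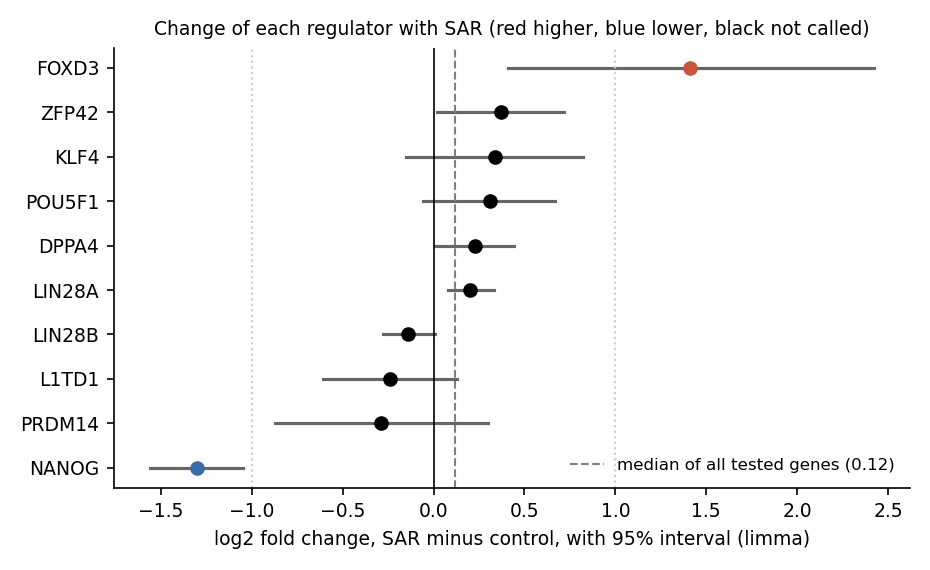
Log2 fold change (SAR minus control) of each regulator with its 95% interval from limma, the thresholds of -1 and 1 as dotted lines and the median of all tested genes (0.12) as a dashed line. NANOG at -1.30 and FOXD3 at 1.41 lie beyond the thresholds, FOXD3 with the widest interval, and the other 8 lie between -0.29 and 0.37.

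FOXD3, a forkhead repressor of pluripotent cells and the neural crest (ENSG00000187140, GRCh38 chr1:63323041-63325126, plus strand), had 0.517, 0.160 and 0.145 FPKM in control and 0.819, 0.990 and 0.637 FPKM with SAR. The groups did not overlap, and control replicate 1, the library with the most genes above 0, was the highest control. The means were 0.274 ± 0.211 and 0.815 ± 0.177 FPKM (SD, n = 3), and the log2 fold change was 1.41 (SE 0.424, interval 0.41 to 2.42, adjusted p = 0.0415 from limma). Only 29, 10 and 7 reads in control and 35, 43 and 30 reads with SAR lie behind these levels, and a gene that enters the test through the group where it is high had to differ. The call is not firm: it was kept in 5 of the 13 other settings in which FOXD3 could be tested and was lost, for example, after median-ratio rescaling (1.32, adjusted p = 0.0551), without control replicate 2 (1.22, adjusted p = 0.111), without control replicate 3 (1.17, adjusted p = 0.114) and without SAR replicate 3 (1.56, adjusted p = 0.0595). Without SAR replicate 1 or SAR replicate 2 its mean fell under the filter and it was not tested. FOXD3-AS1 on the opposite strand, which shares 8.58% of the FOXD3 exon bases, was far more abundant at 13.1, 5.83 and 10.0 FPKM in control and 12.9, 12 and 9.86 FPKM with SAR (log2 fold change 0.33, adjusted p = 0.390). The groups of FOXD3-AS1 overlapped, and the part of its reads in the FOXD3 values was not tested. The shared bases are a share of the 2086 exon bases of FOXD3 in GENCODE 29, while its recovered length was 2562 bases.

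KLF4, a Krüppel-like factor used in reprogramming and a gene of the naive state (ENSG00000136826, GRCh38 chr9:107484852-107490482, minus strand), also had a low level. It had 0.947, 0.626 and 0.767 FPKM in control and 0.835, 1.02 and 1.17 FPKM with SAR, from 51 to 79 reads a library. The groups overlapped (log2 fold change 0.34, adjusted p = 0.237 from limma, and 0.23 with adjusted p = 0.416 after rescaling). Its relatives KLF5, at 21.0 to 23.9 FPKM in control and 28.7 to 34.7 FPKM with SAR, and KLF3, at 2.81 to 3.52 and 4.51 to 4.53 FPKM, were higher with SAR at an adjusted p of 0.00893 and 0.0124, both under the fold threshold.

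PRDM14 and ZFP42 are zinc finger proteins of the pluripotent state, PRDM14 a repressor of differentiation genes (ENSG00000147596, GRCh38 chr8:70051651-70071693, minus strand) and ZFP42 (REX1) a classical marker of undifferentiated cells (ENSG00000179059, GRCh38 chr4:187995771-188005050, plus strand). PRDM14 had 5.69, 4.63 and 4.21 FPKM in control and 2.63, 4.34 and 5.26 FPKM with SAR. The SAR libraries differed by 2.00 times among themselves, the widest spread of any regulator within the SAR group, and they overlapped with control (log2 fold change -0.29, adjusted p = 0.396 from limma, and -0.41 with adjusted p = 0.240 after rescaling). ZFP42 had 17.9, 12.8 and 18.3 FPKM in control and 20.1, 23.4 and 19.2 FPKM with SAR, so the groups did not overlap. Its log2 fold change of 0.37 (SE 0.147, adjusted p = 0.0929) did not pass the test, and it was 0.25 after median-ratio rescaling (adjusted p = 0.218).

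DPPA4, a nuclear protein tied to active chromatin in pluripotent cells (ENSG00000121570, GRCh38 chr3:109326141-109337572, minus strand), had 74.6, 57.8 and 64.3 FPKM in control and 76.1, 76.5 and 76.2 FPKM with SAR. The SAR libraries were within 1.01 times of each other and all above control, and the difference did not pass the test (log2 fold change 0.23, adjusted p = 0.0965, and 0.10 with adjusted p = 0.373 after rescaling). Without control replicate 1 it was 0.32 with a limma adjusted p of 0.0188, the only 1 of 16 other settings that passed. Without control replicate 2 it was 0.14 (adjusted p = 0.236). L1TD1, an RNA-binding protein derived from a LINE-1 element and abundant in pluripotent cells (ENSG00000240563, GRCh38 chr1:62194831-62212328, plus strand), had 65.7, 61.2 and 60.4 FPKM in control and 63.8, 57.1 and 40.8 FPKM with SAR. SAR replicate 3 was the lowest of its group by a wide margin, the groups overlapped, and the log2 fold change was -0.24 (adjusted p = 0.277 from limma) and -0.36 after rescaling (adjusted p = 0.126).

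LIN28A (ENSG00000131914, GRCh38 chr1:26410778-26429722, plus strand) was the most abundant of the 10, above 99.6% of tested genes in both groups. It had 387, 402 and 400 FPKM in control and 445, 455 and 469 FPKM with SAR, every SAR library above every control library. Its difference of 0.20 on the log2 scale (SE 0.0531, limma adjusted p = 0.0267) passed the adjusted p and not the fold threshold. Relative to the median gene it was smaller, at 0.08 after median-ratio rescaling (adjusted p = 0.309) and 0.06 after quantile normalization (adjusted p = 0.483). It passed the adjusted p in 9 of the 16 other settings, and leaving out any 1 control library or SAR replicate 2 took the adjusted p to between 0.0610 and 0.0931.

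LIN28B (ENSG00000187772, GRCh38 chr6:104936616-105083332, plus strand) had 14.4, 15.9 and 15.8 FPKM in control and 14.3, 14.1 and 13.5 FPKM with SAR, with the SAR libraries just below control. Its log2 fold change of -0.14 had an adjusted p of 0.122, and after median-ratio rescaling it was -0.26 with an adjusted p of 0.0298. LIN28A therefore exceeded LIN28B by 25.3 to 26.9 times in control and by 31.1 to 34.9 times with SAR, a ratio that no scaling of a library can move (log2 difference 0.34, exact two-sided permutation p = 0.1, the smallest possible).

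Ordered by level, the regulators ranked the same in both groups: LIN28A, POU5F1, DPPA4, L1TD1, ZFP42, LIN28B, NANOG, PRDM14, KLF4 and FOXD3. In control, DPPA4 and L1TD1 overlapped, as did ZFP42 with LIN28B and LIN28B with NANOG. With SAR, each regulator was above the next in every library except KLF4 and FOXD3, which overlapped. NANOG kept its rank while its mean moved from just under that of LIN28B (15.4 FPKM) to nearer that of PRDM14 (4.08 FPKM with SAR). Control replicate 2 was the lowest control library for 5 of the 10 regulators, for 16 of 26 other pluripotency-associated genes and for 39.8% of all tested genes. It was the highest control library for 8 of the 15 DE markers, beside 31.3% of all tested genes. Control replicate 1 was the highest control library for 7 of the 10 regulators and 15 of the 26 other genes. This held for 1 of the 15 DE markers and 42.4% of all tested genes. Whether these patterns have a part in the control spread of POU5F1, ZFP42 and DPPA4 was not tested.

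NANOG and POU5F1 have copies elsewhere in the genome, which can take up reads of the parent gene. The start of the coding sequence of NANOG and of its copy NANOGP8 is shown because reads from stretches this similar can be assigned to either. The lines below are from GENCODE 29 transcripts on GRCh38, NANOG at chr12:7789615-7789704 on the plus strand and NANOGP8 at chr15:35085021-35085110 on the minus strand, with the single base that differs in capitals.
NANOG: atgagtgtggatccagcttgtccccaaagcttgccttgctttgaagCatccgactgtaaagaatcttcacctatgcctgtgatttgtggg
NANOGP8: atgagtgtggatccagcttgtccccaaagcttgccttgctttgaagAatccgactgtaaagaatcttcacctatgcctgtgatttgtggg

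Over the full coding sequence of 918 bases, NANOG and NANOGP8 differed at 5 bases (99.5% identical). Of the windows of 150 bases in NANOGP8, 40.3% occur letter for letter in NANOG. The recovered length behind the NANOGP8 values was 1886 bases, so the gene model counted was longer than the 918 bases compared. NANOGP8 had 7.31, 5.19 and 5.65 FPKM in control and 3.02, 2.32 and 2.10 FPKM with SAR and was called lower like NANOG (log2 fold change -1.25, limma adjusted p = 0.00303). The ratio of NANOGP8 to NANOG was 0.390 to 0.441 in control and 0.354 to 0.523 with SAR, overlapping (exact two-sided permutation p = 0.9). How much of either value comes from reads of the other gene is uncertain. NANOGP1 is a longer, unprocessed copy 103.0 kb after NANOG, in which 9.62% of such windows match NANOG. It had means of 0.636 and 0.527 FPKM (log2 fold change -0.18, limma adjusted p = 0.684). The copies of POU5F1 were far less abundant than their parent. POU5F1P3 (6.06% to 6.39% of the POU5F1 level in control and 6.02% to 7.34% with SAR), POU5F1P4 and POU5F1B had log2 fold changes of 0.39, 0.40 and 0.22, and none of them passed the test. Of the 13 copies, relatives and antisense genes in the table, 8 were tested, 0 were called higher and 1 (NANOGP8) lower, and KLF5 and KLF3 alone passed the adjusted p in the other direction.

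The genes around NANOG on chromosome 12 were examined because the gene lies in a cluster with other pluripotency genes. These neighbours were named after their values had been seen. Within 500 kb of the start of NANOG, 49 other genes are annotated in GENCODE 29, 41 were in the table and 13 were tested. Of these 13, 0 were called higher and 4 lower, 6 were lower at an adjusted p under 0.05 alone, and the median log2 fold change was -0.74, beside 1.58% of tested genes called lower and 9.55% lower at the adjusted p alone. Among the genes called lower is a Y RNA gene (ENSG00000199912) that passed the filter only through its control libraries (SAR mean 0.169 FPKM) and so had to differ. Neighbouring genes share a region and are not independent.

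GDF3, a TGF-beta ligand of pluripotent cells that starts at -92.0 kb from NANOG, had 8.57, 7.09 and 6.64 FPKM in control and 3.83, 3.20 and 2.11 FPKM with SAR. Without overlap, its log2 fold change was -1.29 (SE 0.211, limma adjusted p = 0.00554). DPPA3 (STELLA), a germ line and naive state protein at -76.3 kb, had 0.539, 0.893 and 0.674 FPKM in control and 0.163, 0.0536 and 0.0989 FPKM with SAR. All SAR libraries were lower, from 13 to 24 reads in control and 1 to 3 reads with SAR. Its mean was under the filter, and in the fit without a filter its log2 fold change was -1.98 (adjusted p = 0.0153 from limma).

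On the other side, SLC2A3, the glucose transporter GLUT3, starts 148.5 kb after NANOG and had 1117, 1445 and 1221 FPKM in control and 541, 589 and 708 FPKM with SAR. The groups did not overlap (log2 fold change -1.04, limma adjusted p = 0.00239). Its close relative SLC2A14, with which it can share reads, had a log2 fold change of -0.83 that did not pass (adjusted p = 0.0576). FOXJ2, a forkhead factor 244.9 kb after NANOG, and ACSM4, at -483.5 kb, were lower, with log2 fold changes of -0.74 (adjusted p = 0.00257) and -0.94 (adjusted p = 0.00658). The other called neighbours, a Y RNA gene (ENSG00000199912) and a pseudogene (ENSG00000240739), rested on 15 reads or fewer in every library. NECAP1, 289.1 kb after NANOG, had -0.17 and did not pass, and POU5F1P3, 347.1 kb after it, had 0.39.

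**Figure D3:**
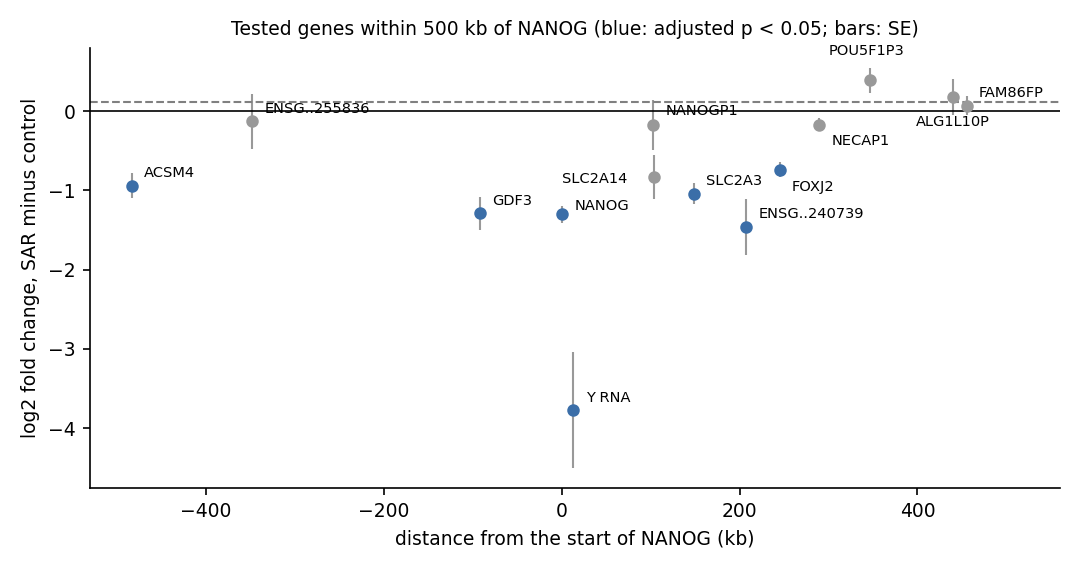
Log2 fold change (SAR minus control, bars SE) of NANOG and the 13 tested genes within 500 kb, against the distance of their start from that of NANOG in kb, blue where the adjusted p from limma is under 0.05, with the median of all tested genes as a dashed line. ACSM4, GDF3, SLC2A3, FOXJ2 and NANOG lie between -0.74 and -1.30, and the tested genes further right than FOXJ2 lie between -0.17 and 0.39. Placed among the lower genes, a pseudogene at -347.8 kb (ENSG00000255836, -0.13) and NANOGP1 at 103.0 kb (-0.18) did not pass. The Y RNA gene at -3.77 rests on 7 reads or fewer.

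Around the other regulators the shares were read against the same background. Of 33 tested genes within 500 kb of POU5F1, HLA-B (1.42) was called higher and IER3 (-1.87) lower, both named after their values were seen, and 9 were higher and 3 lower at the adjusted p alone, beside 23.7% and 9.55% of all tested genes. Of 20 near LIN28A, 0 were called and 5 were higher at the adjusted p alone. Near the remaining 7 regulators, 1 to 8 genes were tested and 0 were called.

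Of the 27 other genes associated with pluripotency, 26 were tested, 0 were called higher and 1, GDF3, was called lower, and their median log2 fold change was 0.12, beside 0.12 for all tested genes. At the adjusted p alone 9 were higher and 4 lower, beside 23.7% and 9.55% of all tested genes. EPCAM, an epithelial surface protein of stem cells, had 168 to 171 FPKM in control and 249 to 293 FPKM with SAR (0.64, adjusted p = 0.00177). SALL4, a zinc finger partner of POU5F1, had 44.5 to 51.4 and 66.9 to 67.5 FPKM (0.48, adjusted p = 0.00263). MYCN, a growth-promoting transcription factor, had 6.21 to 8.08 and 12.5 to 14.2 FPKM (0.83, adjusted p = 0.00278). ZIC2, a zinc finger factor of the primed state, was lower at 54.3 to 57.5 FPKM with SAR against 70.0 to 76.5 FPKM in control (-0.39, adjusted p = 0.00342). TDGF1, the co-receptor of NODAL, was at 209 to 213 FPKM in control and 230 to 261 FPKM with SAR, and its log2 fold change of 0.20 (adjusted p = 0.0470) shrank to 0.07 after median-ratio rescaling (adjusted p = 0.415).

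Genes of the naive state, the earlier form of pluripotency in the embryo, were mostly low, since 9 of 16 were under 1 FPKM in all libraries and 11 were tested. FGF4, a growth factor gene that POU5F1 and SOX2 activate, rose from 1.81 to 1.91 FPKM in control to 4.46 to 5.27 FPKM with SAR (log2 fold change 1.36, adjusted p = 0.000335 from limma). TBX3, a T-box factor of naive cells that is also used in endoderm, rose from 0.628 to 0.824 FPKM to 1.37 to 2.72 FPKM (1.42, adjusted p = 0.00724). These were the 2 called higher, and 0 were called lower, beside 3.41% and 1.58% of all tested genes. The groups did not overlap for 4 of the 11 that were higher and 2 that were lower, beside 35.5% and 15.2% of all tested genes. DPPA3, also on this list but under the filter, was lower in every SAR library, as given above. KLF5 and NLRP7, a regulator of imprinting, passed the adjusted p alone, NLRP7 with -0.46 (adjusted p = 0.0482), and the median of the 11 was 0.34. Among 9 germ cell genes that the file lists, 4 were tested and 0 were called. PDPN, a surface glycoprotein, was higher at 20.5 to 21.9 FPKM against 12.5 to 15.7 FPKM (0.62, adjusted p = 0.00375), and SOX15, PRDM1 and TFAP2C did not pass.

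Of 16 genes of the LIN28 and let-7 pathway 15 were tested, 0 were called in either direction, and their median log2 fold change was 0.03. Among the enzymes that act on let-7 precursors, TUT4, the uridylyl transferase recruited by LIN28A, had 9.86, 11.8 and 10.2 FPKM in control and 5.90, 5.77 and 6.91 FPKM with SAR. It was lower without overlap (-0.77, adjusted p = 0.00255 from limma) but under the fold threshold. Among known let-7 targets, HMGA2, a chromatin protein, was at 15.4 to 18.4 FPKM in control and 11.2 to 12.6 FPKM with SAR (-0.48, adjusted p = 0.00728). PLAGL2, a zinc finger factor, was higher (0.38, adjusted p = 0.0112), as was DGCR8, the partner of DROSHA in microRNA processing (0.33, adjusted p = 0.0239). After median-ratio rescaling PLAGL2 had 0.26 (adjusted p = 0.0487) and DGCR8 no longer passed (0.21, adjusted p = 0.0878). Counted together, 2 genes of this list were higher and 3 lower at the adjusted p alone, beside the 23.7% and 9.55% of all tested genes. The let-7 microRNAs themselves were not measured in these mRNA libraries.

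**Figure D4:**
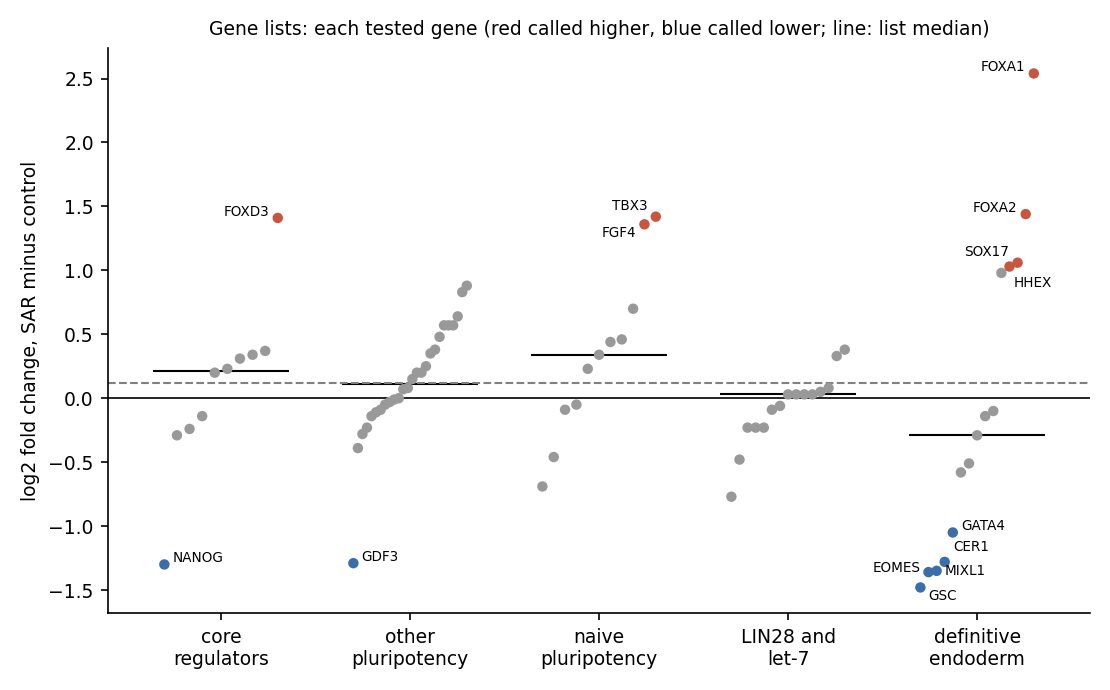
Log2 fold change (SAR minus control) of each tested gene of 5 lists, red and blue where called higher or lower (gray genes may pass the adjusted p alone), with list medians as lines and the median of all tested genes as a dashed line. The DE markers spread from GSC at -1.48 to FOXA1 at 2.54, while the other pluripotency and the LIN28 and let-7 genes lie mostly within 1 of 0.

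For comparison, DE markers moved in both directions: FOXA1 (2.54), FOXA2 (1.44), SOX17 (1.06) and HHEX (1.03) were called higher, and GSC (-1.48), EOMES (-1.36), MIXL1 (-1.35), CER1 (-1.28) and GATA4 (-1.05) lower, among 15 tested with a median of -0.29. After median-ratio rescaling SOX17 (0.93) and HHEX (0.90) were under the fold threshold. Of all tested genes, 3.41% were called higher and 1.58% lower. CXCR4, the surface marker used to sort DE, was lower at the adjusted p alone (-0.51, adjusted p = 0.00872). KIT, another surface protein of this list and named after its values were seen, was higher at the adjusted p alone (0.98, adjusted p = 0.00148). At that threshold 5 of the 15 were higher and 7 lower, beside 23.7% and 9.55% of all tested genes. In size, NANOG at -1.30 lay near EOMES, MIXL1 and CER1 of the DE list, given here as values without a test of likeness. Of 5 mesoderm markers tested, TBXT alone was called, in the opposite direction to NANOG (1.69, adjusted p = 0.000574 from limma). At the adjusted p alone, TBX6 was higher (0.82, adjusted p = 0.00207) and KDR lower (-0.22, adjusted p = 0.0177). TWIST1 did not pass. SIX3 (1.51, adjusted p = 0.00631), which passed the filter only through its SAR libraries (control mean 0.343 FPKM), was the 1 called of 4 tested neural genes, where SOX3, NES and ZNF521 did not pass. GATA3 (1.08, adjusted p = 0.00958, and 0.96 after rescaling) was the 1 of 11 amnion and trophoblast genes that was tested. CDX2 of this list, named after its values were seen, lay under the filter with 0 to 2 reads in control and 11 to 27 reads with SAR. In the limma fit without a filter CDX2 had 1.82 (adjusted p = 0.025), and the other untested genes of the list did not pass. These single genes of other lineages moved in the same libraries as FOXD3, and their part in the FOXD3 difference was not tested.

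Over the 6 libraries and the 13490 genes with a mean of 1 FPKM or more, the genes whose centred log2(FPKM + 0.1) lay nearest to that of NANOG by Euclidean distance were PMEPA1 (0.220), PLK2 (0.274) and ENSG00000277945 (0.316). PMEPA1, an inhibitor of TGF-beta signaling that this signaling induces, had 10.8, 8.88 and 9.60 FPKM in control and 3.85, 3.69 and 3.28 FPKM with SAR. The genes nearest to POU5F1 were METRNL (0.0622), VWA1 (0.132) and ARHGEF10L (0.141), and METRNL had 4.33, 2.63 and 3.50 FPKM in control and 4.44, 4.35 and 4.31 FPKM with SAR. As for POU5F1, control replicate 2 was the lowest library for each of these 3 and the SAR libraries were close together. A distance of this kind follows the libraries as much as the genes.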

How the data were processed

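RNA was isolated from H1-derived cells on day 3 of DE differentiation, mRNA was selected with oligo(dT) beads and paired-end libraries were made from 3 control and 3 SAR samples. Groups and replicate numbers came from the sample labels. The authors deposited FPKM for 40396 genes, 1 column per library, and the submitters' processing notes name HISAT2, featureCounts from Subread, DESeq2 and GRCh38.p13. The annotation release and strand setting are not given in the sources used here.

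Because FPKM are not counts, log2(FPKM + 0.1) was tested with limma 3.58.1 (R 4.3.3, eBayes with an intensity trend) for 16371 genes averaging 0.5 FPKM or more, without a replicate block. Fold changes on this scale understate the change of low genes. Read counts were recovered from the steps of the FPKM and were whole in all 6 libraries for 40394 genes (tolerance 0.01 read). Of the genes in GENCODE 29, 59.2% had a recovered length equal to its exon union, and positions and overlaps are those of GENCODE 29. For all other genes the smallest length that gave whole reads was used, so their counts are the smallest that fit. Whole reads are a weak check for genes seen in few libraries, which are easily fitted this way. Promoters came from RefSeq. Summaries used Python 3.11.15 with pandas 2.3.3 and numpy 2.4.6, and plots matplotlib 3.10.9. The test was checked on simulated data.

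The 10 regulators and all gene lists were chosen with earlier results of these data known. The genes named are these regulators, their copies, relatives and antisense genes, every called gene and up to 4 tested genes with the smallest adjusted p of each list, the markers SOX17, FOXA2, CXCR4, TBXT, PAX6, SOX2 and TDGF1, and the 3 genes nearest to POU5F1 and NANOG in pattern. Any other gene is marked in the text as named later. Alternatives changed the pseudocount (1 or 0.01), the filter (none, or a mean of 1 FPKM), the scaling (median-ratio or quantile), the genes (protein-coding alone) and the model (without the trend, with a replicate block, or voom on the recovered reads). They also dropped the fold threshold and left out each library in turn.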

Additional observations from a re-analysis of the deposited data

How the results depend on the processing

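NANOG, the 1 regulator called lower, was called in every setting tried. The number called higher was 1 (FOXD3) as reported and 0 with a pseudocount of 1, with no filter, with a minimum mean of 1 FPKM, after median-ratio rescaling, after quantile normalization and with a replicate block. It was 2 with no minimum fold change, and between 0 and 1 when each library was left out in turn. The log2 fold change of no regulator changed sign in any setting.

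Rescaling moved the balance of calls over all genes from 559 higher and 259 lower to 397 and 363 (median-ratio) or 340 and 409 (quantile), and a pseudocount of 1 left 169 and 141. With protein-coding genes alone, 380 and 113 were called. Same-numbered samples deviated from their group means with correlations of 0.0729, 0.00286 and 0.0247, so the numbers were not taken to pair the samples. The replicate block gave 546 higher and 274 lower calls, and FOXD3 lost its call there. Depth limits FOXD3 and KLF4 most, with 7 to 79 reads in a library, and intervals from reads would cover counting error only.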
